A study of Mus musculus with 12 samples.

Results

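The 48 genes described here encode proteins of the defence against oxidative stress and of glutathione metabolism. They were taken as the rows of the count tables whose gene symbol equals a listed name, and all 48 were found among 24525 genes. The genes were read in input RNA-seq libraries of neural stem/progenitor cells (NSPCs), grown as floating neurospheres from E14.5 mouse forebrain, with 3 wild-type libraries and 3 Ythdf2-/- libraries. Input RNA is fragmented mRNA set aside before the m6A antibody step. The 6 libraries of antibody-bound RNA were not analysed here.

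All cultures were of strain C57BL/6, at passage 1 and with no treatment, in medium with EGF, bFGF, N2 and B27 supplements. The Ythdf2-/- embryos carry, on both alleles, a deletion of the 5′ UTR and exon 1 of *Ythdf2*, whose protein is a reader of m6A in mRNA. The deletion was made by a Cre that acts in all tissues, so the allele is constitutive and not limited to NSPCs. The study describes the libraries of a genotype as biological replicates, and neither it nor the labels say whether they came from separate embryos, so p-values measure the spread between these libraries. The study asked how *Ythdf2* loss acts on neural development, and exposed differentiated neurons to arsenite, an agent that causes oxidative stress. The libraries described here were not so exposed, so they hold the levels of these genes in unstressed cells.

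Cells meet peroxides and other oxidants with a few linked systems. Glutathione, made from cysteine, glutamate and glycine, feeds glutathione peroxidases and transferases, while thioredoxin feeds the peroxiredoxins, and both are kept reduced with NADPH. Nrf2, the transcription factor encoded by *Nfe2l2*, is held down by Keap1 and acts on many of these genes through a short promoter sequence, the antioxidant response element. Metallothioneins bind zinc and copper and are induced through metal response elements.

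The promoter windows of the members are shown because they carry the 2 elements through which groups of these genes are known to be induced. Promoters of 250 bases before to 50 bases after the start were taken from RefSeq on GRCm38.p6 and matched 42 of the 48 genes. *Hmox1*, *Gclc*, *Gsr*, *Sod3*, *Prdx6* and *Gsta4* had no entry. The core of the antioxidant response element was searched as TGACNNNGC on both strands. A promoter of 12 of the 42 genes (28.6%) held it, against 17.1% of the 10129 tested genes with a promoter. Counted by promoter in place of gene, which is another unit, it lay in 12.4% of all 32851 promoters. In the windows of 29 bases below, read 5′ to 3′ on the strand of the gene, capitals mark the core on either strand. The windows lie at chr2:75704885-75704913 on the minus strand for *Nfe2l2*, chr3:122245413-122245441 on the plus strand for *Gclm*, chr4:116685456-116685484 on the plus strand for *Prdx1*, chr10:82859104-82859132 on the plus strand for *Txnrd1*, chrX:74428919-74428947 on the minus strand for *G6pdx* and chr8:94172529-94172557 on the plus strand for *Mt2*.
Nfe2l2: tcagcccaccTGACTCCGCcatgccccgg
Gclm: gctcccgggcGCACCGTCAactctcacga
Prdx1: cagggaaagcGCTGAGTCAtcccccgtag
Txnrd1: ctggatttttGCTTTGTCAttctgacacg
G6pdx: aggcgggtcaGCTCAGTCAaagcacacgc
Mt2: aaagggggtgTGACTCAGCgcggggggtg

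The start is that of the RefSeq promoter table. In *Gclm* and *Txnrd1*, and in *Mt1* below, it lies downstream of the outermost start of the gene in the annotation. The windows of *Txnrd1* and *Mt1* lie inside the annotated span of the gene, and that of *Gclm* lies before it. Counted from the table's start, the core ends 232 bases before it in *Nfe2l2*, 126 in *Gclm*, 125 in *Prdx1*, 84 in *Txnrd1*, 49 in *G6pdx* and 71 in *Mt2*. The other 6 genes with a core in a promoter were *Sod1*, *Srxn1*, *Gstm5*, *Gstm7*, *Pgd* and *Me1*. A match of these letters is a description and not a binding site.

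The core of the metal response element was searched as TGCACNC or TGCGCNC on both strands. A promoter of 14 of the 42 genes (33.3%) held it, against 41.4% of tested genes with a promoter. Counted by promoter, it lay in 25.7% of all promoters. One match in *Gclm* overlaps its antioxidant core. Several copies were found in *Mt2*, *Mt1*, *Gclm*, *G6pdx* and *Pgd*, and the copies wholly before the start are shown for *Mt2* and *Mt1*, since metallothioneins are the genes this element is known for. The windows lie on the plus strand at chr8:94172384-94172412, chr8:94172479-94172507 and chr8:94172557-94172585 for *Mt2* and at chr8:94179055-94179083 for *Mt1*, with the core in capitals.
Mt2 at 217 bases before the start: agcatcgcctcTGCACCCggcccctcggg
Mt2 at 122 bases before the start: cgcagacccttTGCGCTCagctcctttgc
Mt2 at 44 bases before the start: ggggggagggcGTGTGCAggctctgtccc
Mt1 at 17 bases before the start in the table: cggtcccgctgTGCACACtggcgctccag

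The libraries held 11029827 to 13185778 counted reads, of which the 48 genes took 0.892% to 1.10%. *Ythdf2* was at 71.9, 73.3 and 91.4 CPM (counts scaled to the depth of each library, with TMM factors) in the wild type and at 11.7, 14.7 and 11.1 CPM in Ythdf2-/-, a log2 fold change of -2.66 (SE 0.183, adjusted p = 0.0547 in edgeR's quasi-likelihood test). Wild-type replicate 3 stood apart from the other 5 libraries: its mean rank correlation with them was 0.900, against 0.962 to 0.970 for the others. It lay alone on the leading principal component of the 2000 genes most variable across the 6 libraries, which held 74.2% of their variance. In that library the 7 oligodendrocyte lineage markers summed to 3423 CPM against 1574 to 1903 CPM in the others, the 6 neuronal markers to 1855 against 1058 to 1285 CPM, the 8 astroglial markers to 10147 against 2776 to 7353 CPM, and the 5 neural progenitor markers (*Nes*, *Sox2*, *Vim*, *Fabp7* and *Pax6*) to 3104 against 4713 to 6426 CPM. Within the astroglial list, *Gfap* (3046 CPM) and *Aqp4* (1107 CPM) were highest there, while *Slc1a3* was at 1872 CPM, inside the range of the others (1407 to 3743 CPM). Of the progenitor markers, *Nes*, *Vim* and *Fabp7* were lowest there, while *Sox2* (551 against 316 to 426 CPM) and *Pax6* (92.6 against 44.6 to 65.3 CPM) were highest. The 6 mesenchymal markers summed to 32.4 CPM in that library and to 0.889 to 4.35 CPM in the others, but *Pdgfrb* alone gave 31.8 CPM of it, and *Col1a1*, *Col3a1* and *Lum* were at 0 there. The progenitor markers were thus present in every library, while *Ptprc*, *C1qa*, *C1qb*, *Cldn5* and the 4 globin genes on the lists were at 0 in all 6. Their part in the values below was not tested. In bulk RNA, fewer cells of a type and less RNA per cell cannot be told apart. Values without wild-type replicate 3 are therefore given beside the results.

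Per length, most of the 48 genes were among the well expressed genes of these cells. Levels between genes are given as RPKM, computed from the raw counts and the gene length in the deposited tables, as the mean ± SD over 6 libraries. Their median was 53.8 RPKM against 11.1 RPKM over the 13112 genes tested, and 42 of 48 lay above that median. The ferritin light chain gene *Ftl1* was highest at 1670 ± 241 RPKM, followed by *Mt1* at 1314 ± 470, the heavy chain gene *Fth1* at 943 ± 149, the thioredoxin gene *Txn1* at 805 ± 423 and *Mt3* at 731 ± 223 RPKM. *Ftl1* and *Mt1* did not differ beyond their spread, and neither did neighbours from *Mt1* to *Mt3*. The lowest were *Gstm2* at 1.05 ± 0.611, the endoplasmic reticulum peroxidase gene *Gpx7* at 1.90 ± 1.09 and the extracellular superoxide dismutase gene *Sod3* at 3.24 ± 1.92 RPKM. All 48 passed the filter on low counts, and 46 had at least 10 reads in every library.

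**Figure D1:**
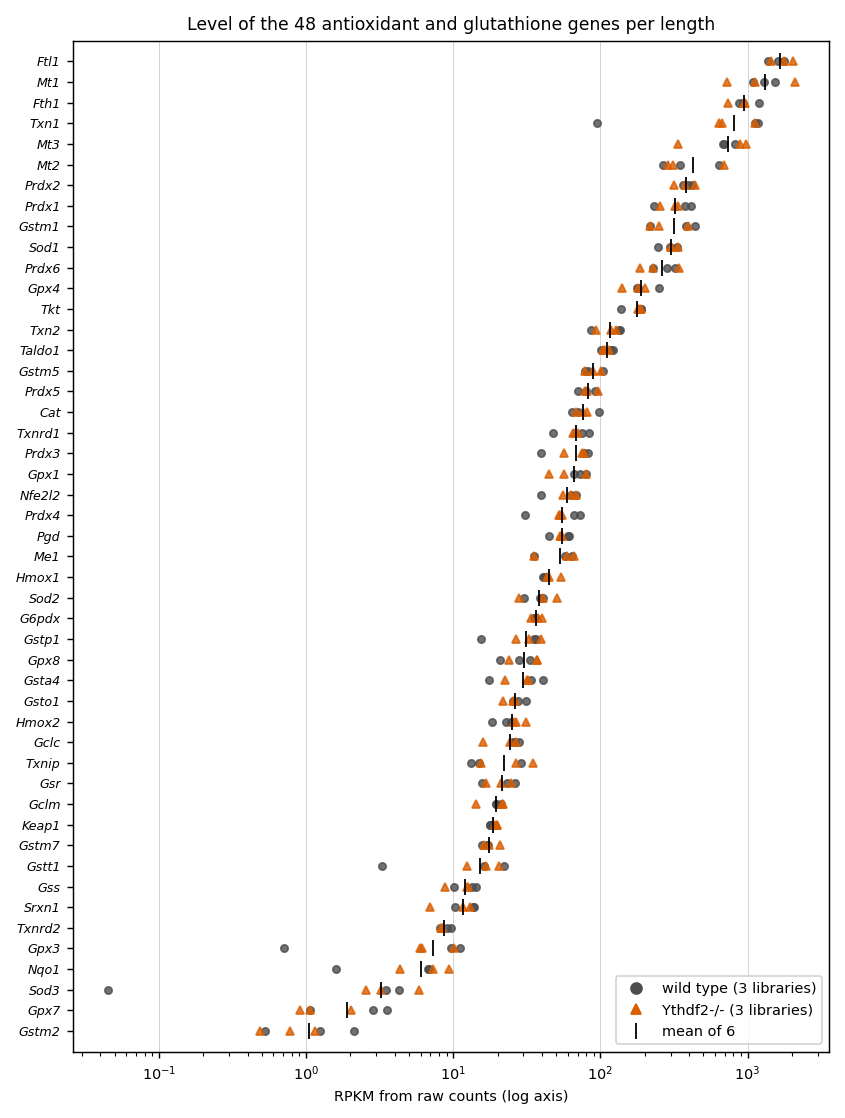
Level per length of the 48 genes in RPKM on a log axis, with a point for each of 3 wild-type (circles) and 3 Ythdf2-/- libraries (triangles) and a bar for the mean of 6. The 6 points of a gene mostly lie close together, and the single circles far to the left for *Txn1*, *Gstt1*, *Gpx3*, *Nqo1* and *Sod3* are wild-type replicate 3.

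The comparison of the genotypes asked whether loss of *Ythdf2* changes the level of these genes in unstressed NSPCs. None of the 48 passed an adjusted p of 0.05 in edgeR's quasi-likelihood test (0% of all genes tested passed), with the smallest adjusted p at 0.999. DESeq2 also called none of the 48, and 0.236% of all genes. None had an unadjusted p under 0.05 in edgeR, DESeq2 or limma-voom, where 3.63% of all genes did in edgeR, and the smallest was 0.0850 for *Hmox2*. The log2 fold changes (Ythdf2-/- relative to wild type) ran from -0.89 for *Gpx7* to 0.56 for *Sod3*, with a median of 0.01 against -0.01 over all genes tested. Of the 48 genes, 25 were above 0 and 23 below, where 48.1% of all genes were above. The median absolute log2 fold change was 0.124 against 0.157 over all genes, and the median SE 0.229 against 0.248.

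The intervals set how far these values bound a difference. For 37 genes the 95% interval of the log2 fold change lay within 1 of 0, that is, within a doubling or halving. The 11 genes whose interval reached further were *Nqo1*, *Sod3*, *Gpx3*, *Gpx7*, *Txn1*, *Txnip*, *Gstm1*, *Gstm2*, *Gstp1*, *Gstt1* and *Mt2*. Narrow intervals belonged to *Keap1* (-0.11 to 0.40), the NADPH-producing dehydrogenase gene *G6pdx* (-0.23 to 0.32) and the transaldolase gene *Taldo1* (-0.37 to 0.25). Members with and without the antioxidant core in the promoter had median log2 fold changes of 0.02 (n = 12) and 0.01 (n = 30), and of -0.06 and -0.13 without wild-type replicate 3.

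**Figure D2:**
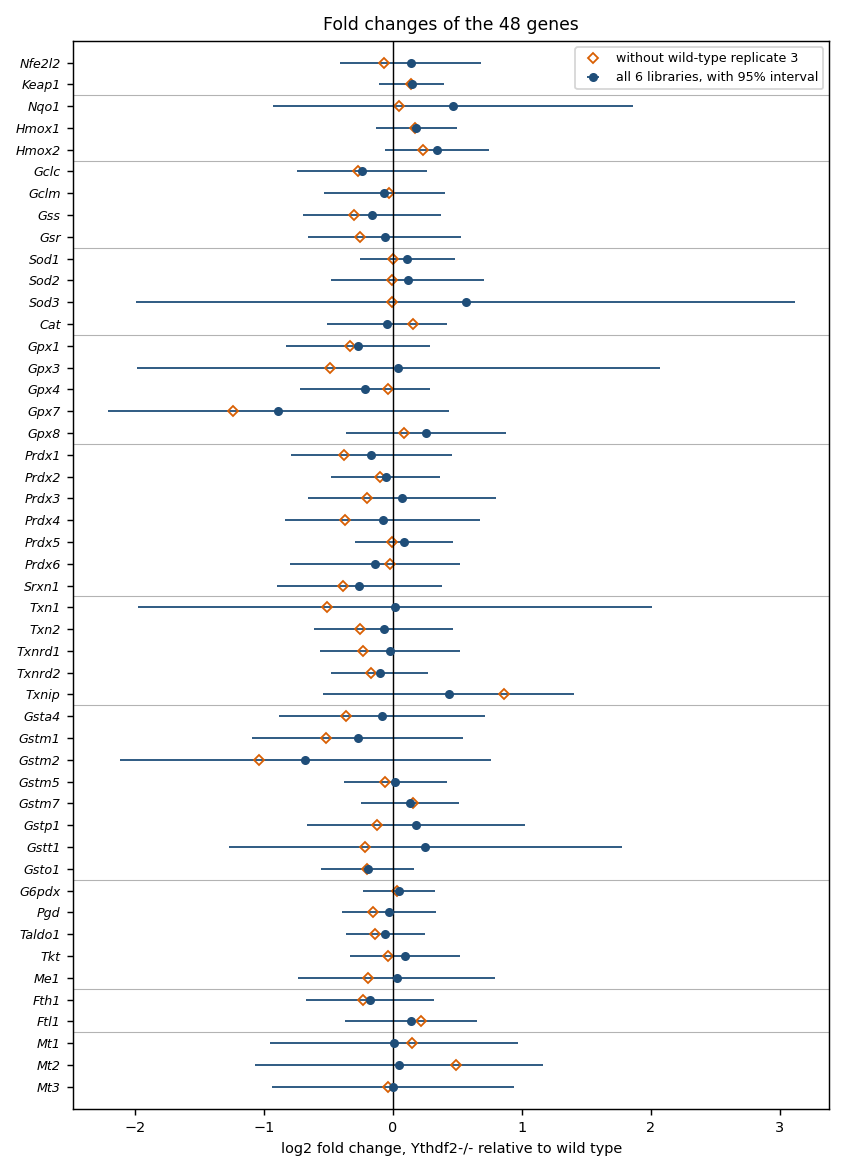
Log2 fold change of each of the 48 genes, Ythdf2-/- relative to wild type, grouped by role. Filled circles with 95% intervals use all 6 libraries, and every interval includes 0. Open diamonds leave out wild-type replicate 3, and 35 of 48 of them lie below 0.

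In the regulators, *Keap1* (chromosome 9, 21229730 to 21239332 on the minus strand of GRCm38, 5 exons), the substrate adaptor that targets Nrf2 for degradation, was at 61.2, 62.0 and 60.9 CPM in the wild type and at 66.3, 68.6 and 68.6 CPM in Ythdf2-/-. The groups did not overlap, the log2 fold change was 0.15 (SE 0.105), and it was 0.14 without wild-type replicate 3. *Nfe2l2* itself ranged from 96.5 to 167 CPM, lowest in wild-type replicate 3, with a log2 fold change of 0.14 (SE 0.227) that was -0.07 without that library.

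The haem oxygenases, which break haem down to biliverdin, iron and carbon monoxide, were the other pair of genes without overlap. The inducible *Hmox1* was at 65.6, 66.9 and 64.5 CPM in the wild type and at 70.0, 68.8 and 84.7 CPM in Ythdf2-/-, a log2 fold change of 0.18 (SE 0.129) or 0.17 without wild-type replicate 3. The constitutive *Hmox2* (chromosome 16, 4726361 to 4766742, plus strand, 8 exons) was at 30.6, 28.5 and 22.9 CPM and at 32.0, 38.7 and 33.1 CPM, a log2 fold change of 0.34 (SE 0.167) or 0.23 without that library. Both genes were higher in each Ythdf2-/- library than in any wild-type library, by small margins. *Hmox2* shares 892 exon bases with *Cdip1* on the opposite strand, and the strand setting of the count is not given in the sources used here. *Cdip1* had a log2 fold change of 0.09 (SE 0.168).

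For *Keap1*, *Hmox1* and *Hmox2* the exact two-sided permutation p was 0.1, the smallest that 3 libraries against 3 allow. These 3 of 48 genes compare with 5.24% of all genes that were higher in Ythdf2-/- without overlap, and 0 of 48 with 4.92% that were lower without overlap. In either direction 10.2% of all genes did not overlap.

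*Nqo1*, the quinone reductase gene often read as an Nrf2 target, was at 10.6, 10.5 and 2.47 CPM in the wild type and at 6.74, 14.51 and 11.3 CPM in Ythdf2-/-. Its log2 fold change was 0.47 (SE 0.577) with all libraries and 0.05 (SE 0.322) without wild-type replicate 3, which alone lay below the range of the Ythdf2-/- libraries.

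**Figure D3:**
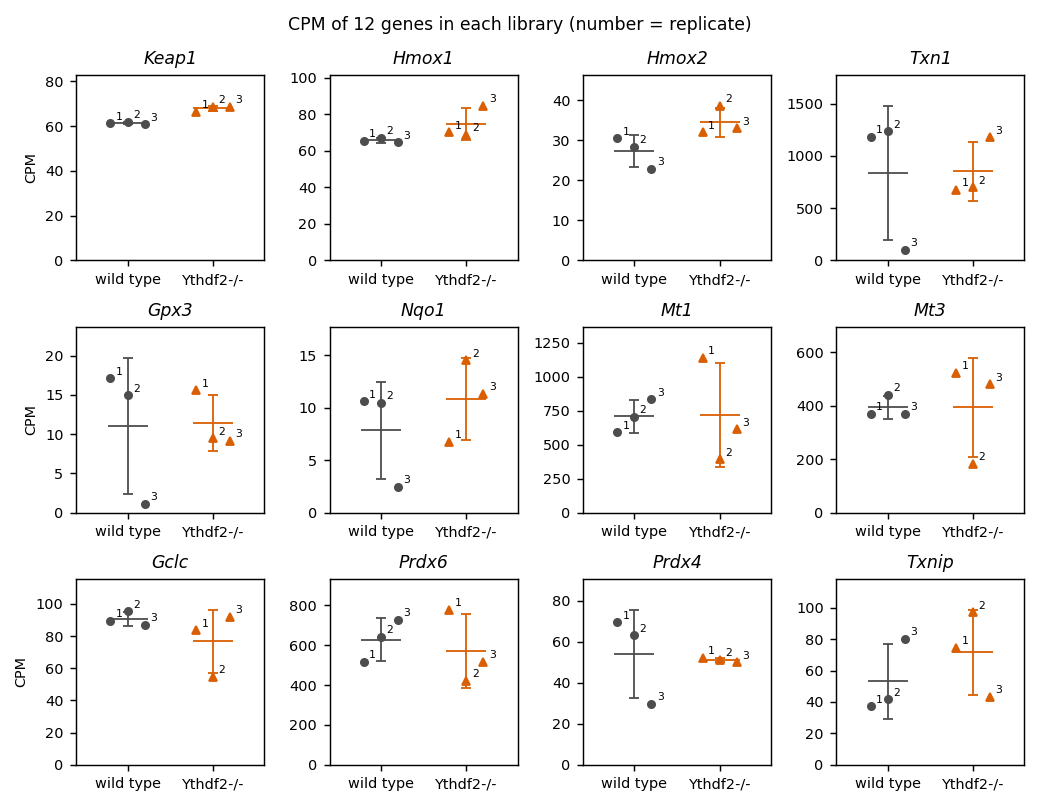
CPM of 12 of the genes in each library, with numbers for the replicates and bars for the mean ± SD (n = 3). *Keap1*, *Hmox1* and *Hmox2* show groups without overlap, *Txn1*, *Gpx3* and *Nqo1* the low wild-type replicate 3, and *Mt1* and *Mt3* the spread among Ythdf2-/- libraries. Each axis starts at 0.

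The 4 genes of glutathione synthesis and reduction all had log2 fold changes below 0, and none passed the test. *Gclc*, the catalytic subunit of the rate-limiting ligase, was at -0.24 (SE 0.208), its modifier subunit *Gclm* at -0.07 (SE 0.193), the synthetase *Gss* at -0.16 (SE 0.221) and the reductase *Gsr* at -0.06 (SE 0.244). Ythdf2-/- replicate 2 was the lowest of the 6 libraries for *Gclc*, *Gclm* and *Gss*. *Gclc* stood at 54.6 CPM there, against 83.7 to 95.4 CPM in the other 5 libraries, and its log2 fold change without that library was -0.04. The 4 genes together summed to 191 to 227 CPM in the wild type, and to 209, 145 and 225 CPM in Ythdf2-/-. Without wild-type replicate 3 all 4 were below 0, with a median of -0.26. The common sign did not hold in every fit: without Ythdf2-/- replicate 2 *Gclm* was at 0.12, and with single libraries left out *Gsr* reached 0.09.

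Among the enzymes that remove superoxide and hydrogen peroxide, *Sod1* (0.11, SE 0.152), the mitochondrial *Sod2* (0.11, SE 0.245) and catalase, *Cat* (-0.05, SE 0.193), had small log2 fold changes. Without wild-type replicate 3, *Sod1* and *Sod2* were at 0.00 and -0.01. *Cat* was 1 of 2 members highest in wild-type replicate 3 (249 CPM against 162 to 207 CPM), and its fold change was 0.16 without that library. *Sod3* had 84, 114 and 1 reads in the wild type and 77, 71 and 148 reads in Ythdf2-/-. In CPM these were 7.19, 8.70 and 0.0915 against 6.57, 5.26 and 11.9. Its log2 fold change of 0.56 (SE 1.06) rests on the single read of wild-type replicate 3 and was -0.01 (SE 0.373) without it.

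In the glutathione peroxidase family, *Gpx7* had the most negative log2 fold change of the 48 genes. It was at 4.28, 3.43 and 1.28 CPM in the wild type and at 1.11, 2.44 and 1.29 CPM in Ythdf2-/-, so the low wild-type replicate 3 lay among the Ythdf2-/- libraries. The log2 fold change was -0.89 (SE 0.547), and -1.24 (SE 0.405, unadjusted p = 0.0213, adjusted p = 0.238 in edgeR) without that library.

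*Gpx3*, which encodes the secreted peroxidase, was at 17.1, 15.0 and 1.10 CPM in the wild type and at 15.6, 9.48 and 9.17 CPM in Ythdf2-/-. Wild-type replicate 3 was again far below all others, and the log2 fold change went from 0.04 (SE 0.837) to -0.49 (SE 0.269) without it. *Gpx4*, the phospholipid hydroperoxidase that guards against ferroptosis, was highest in wild-type replicate 3, and its log2 fold change of -0.22 (SE 0.207) was -0.04 without that library. *Gpx1* and the endoplasmic reticulum member *Gpx8* were at -0.27 (SE 0.230) and 0.26 (SE 0.256), and at -0.33 and 0.09 without that library.

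The 6 peroxiredoxins and the sulfiredoxin *Srxn1*, which repairs overoxidised peroxiredoxin, lay between -0.26 and 0.09 on the log2 scale. All 7 were below 0 without wild-type replicate 3, with a median of -0.20. *Prdx4*, the peroxiredoxin of the secretory pathway, was at 69.6, 63.3 and 29.7 CPM in the wild type and at 52.4, 51.3 and 50.1 CPM in Ythdf2-/-, so the 3 Ythdf2-/- values sat between those of the wild type. Its log2 fold change was -0.08 (SE 0.312), and without wild-type replicate 3 it was -0.37 (SE 0.094, unadjusted p = 0.00671, adjusted p = 0.190 in edgeR), the smallest adjusted p of the 48. The cytosolic *Prdx1* went from -0.17 (SE 0.257) to -0.38 (SE 0.154, adjusted p = 0.293). *Prdx6*, a peroxiredoxin with phospholipase activity, ranged from 515 to 727 CPM in the wild type and from 420 to 777 CPM in Ythdf2-/-, where the first replicate was highest and the second lowest.

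*Txn1* (chromosome 4, 57943373 to 57956411, minus strand, 5 exons) showed the widest spread in CPM of the thioredoxin system. It had 13867, 16212 and 1093 reads in the wild type and 7909, 9477 and 14650 reads in Ythdf2-/-, or 1187, 1237 and 100.0 CPM against 674, 702 and 1179 CPM. The value in wild-type replicate 3 was 0.0825 of the mean of the other wild-type libraries, and the group means, 841 ± 642 and 852 ± 284 CPM (SD, n = 3), differed by far less than the spread. The log2 fold change was 0.02 (SE 0.824, 95% interval -1.98 to 2.01) and -0.51 (SE 0.265) without that library.

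The other genes of the system varied less. The mitochondrial *Txn2* and the reductases *Txnrd1* and *Txnrd2* had log2 fold changes of -0.07, -0.02 and -0.10, and of -0.26, -0.23 and -0.17 without wild-type replicate 3. *Txnip*, the inhibitor of thioredoxin, ran the other way: it was at 37.2, 41.6 and 80.4 CPM in the wild type and at 74.4, 97.1 and 43.2 CPM in Ythdf2-/-. Wild-type replicate 3 lay with the high Ythdf2-/- libraries, and the log2 fold change went from 0.43 (SE 0.403) to 0.86 (SE 0.328, unadjusted p = 0.0394, adjusted p = 0.278) without it. *Txnip* shares 606 exon bases with *Gm15441* on the opposite strand.

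The 8 glutathione transferases, which conjugate glutathione to reactive compounds, were 4 above and 4 below 0, and 7 of 8 were below 0 without wild-type replicate 3. *Gstt1* was at 16.7, 22.9 and 3.39 CPM in the wild type and at 12.8, 17.3 and 21.2 CPM in Ythdf2-/-, with log2 fold changes of 0.25 (SE 0.630) and, without that library, -0.21 (SE 0.251). *Gstm2* was at 2.23, 1.30 and 0.549 CPM and at 0.512, 0.814 and 1.21 CPM, with -0.68 (SE 0.595) and -1.04 (SE 0.481), and its groups overlapped. The 4 *Gstm* genes lie together on chromosome 3 and are similar in sequence, so their counts may share reads. *Gstm1*, the highest of the transferases per length at 317 ± 98.9 RPKM, was at -0.27 (SE 0.339), and at -0.52 (SE 0.256) without wild-type replicate 3.

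The 5 genes of NADPH supply were in a narrow range. With all libraries, the log2 fold changes of *G6pdx*, *Pgd*, *Taldo1* and *Tkt* of the pentose phosphate pathway and of the malic enzyme *Me1* lay between -0.06 and 0.10. Without wild-type replicate 3 they lay between -0.19 and 0.03, with 4 of 5 below 0 and a median of -0.14. The SE was 0.115 for *G6pdx* and 0.315 for *Me1*, the smallest and largest of the 5.

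The ferritin subunits, which store iron and so limit the iron available to react with peroxide, were of opposite sign. *Ftl1* was at 1569, 1345 and 1716 CPM in the wild type and at 1726, 1971 and 1393 CPM in Ythdf2-/-, a log2 fold change of 0.14 (SE 0.212). *Fth1* was at 881, 1200 and 927 CPM and at 969, 742 and 946 CPM, a log2 fold change of -0.18 (SE 0.206). In both, the groups overlapped, and without wild-type replicate 3 the values were 0.22 and -0.23. Ferritin genes have processed copies in the genome, and how reads with several matches were counted is not given in the sources used here.

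The 3 metallothionein genes varied widely among libraries of 1 genotype. They lie side by side on the plus strand of chromosome 8 in GRCm38, with *Mt3* from 94152607, *Mt2* from 94172618 and *Mt1* from 94178883 to 94180327. *Mt1* was at 591, 703 and 835 CPM in the wild type and at 1139.6, 393 and 613 CPM in Ythdf2-/-. *Mt3*, the form known from brain, was at 368, 441 and 369 CPM and at 521, 182 and 479 CPM. All 3 were highest in Ythdf2-/- replicate 1, and *Mt1* and *Mt3* were lowest in replicate 2 of the same genotype.

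On the log2 scale their median deviation from the gene mean was 0.75 in the former library and -0.78 in the latter. The summed metallothionein level was 1107, 1336 and 1557 CPM in the wild type and 2046, 734 and 1266 CPM in Ythdf2-/-, so 1 genotype held both extremes. The 8 astroglial markers, of which all were detected, summed to 7353 CPM in Ythdf2-/- replicate 1 and to 2776 CPM in replicate 2, the lowest of the 6 libraries. Not every value followed: the sum was highest in wild-type replicate 3 (10147 CPM), and *Aldh1l1* was highest in Ythdf2-/- replicate 2 (481 against 290.2 to 386 CPM). Their part in the metallothionein values was not tested. The log2 fold changes between genotypes were 0.01 for *Mt1* (SE 0.397), 0.05 for *Mt2* (SE 0.463) and 0.00 for *Mt3* (SE 0.388). Without wild-type replicate 3 they were 0.15, 0.49 (95% interval -0.51 to 1.49) and -0.04. *Mt2*, whose promoter holds both cores, ranged from 148 to 385 CPM.

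The 48 genes were also compared library by library. Wild-type replicate 3 was at least 2-fold below each of the other 5 libraries for 5 genes, *Nqo1*, *Sod3*, *Gpx3*, *Txn1* and *Gstt1*, where 6.64% of all genes tested were so. It was at least 2-fold above all others for 0 of 48, against 4.04% of all genes. The only other gene with 1 library so far apart was *Mt3*, low in Ythdf2-/- replicate 2 (1.79% of all genes had such a library other than wild-type replicate 3).

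In 26 of 48 genes wild-type replicate 3 was the lowest library (34.4% of all genes), and in 2 it was the highest (33.8%). The highest library was wild-type replicate 1 in 10 genes (18.1% of all genes), wild-type replicate 2 in 13 (9.24%) and Ythdf2-/- replicate 1 in 8 (6.90%), and Ythdf2-/- replicate 2 was the lowest in 10 (14.3%). The median deviation of the 48 genes from their mean was -0.25 on the log2 scale in that library, 0.14 and 0.15 in the other wild-type libraries, and 0.04, -0.05 and 0.10 in Ythdf2-/-. Over all genes tested it was within 0.02 of 0 in each library.

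**Figure D4:**
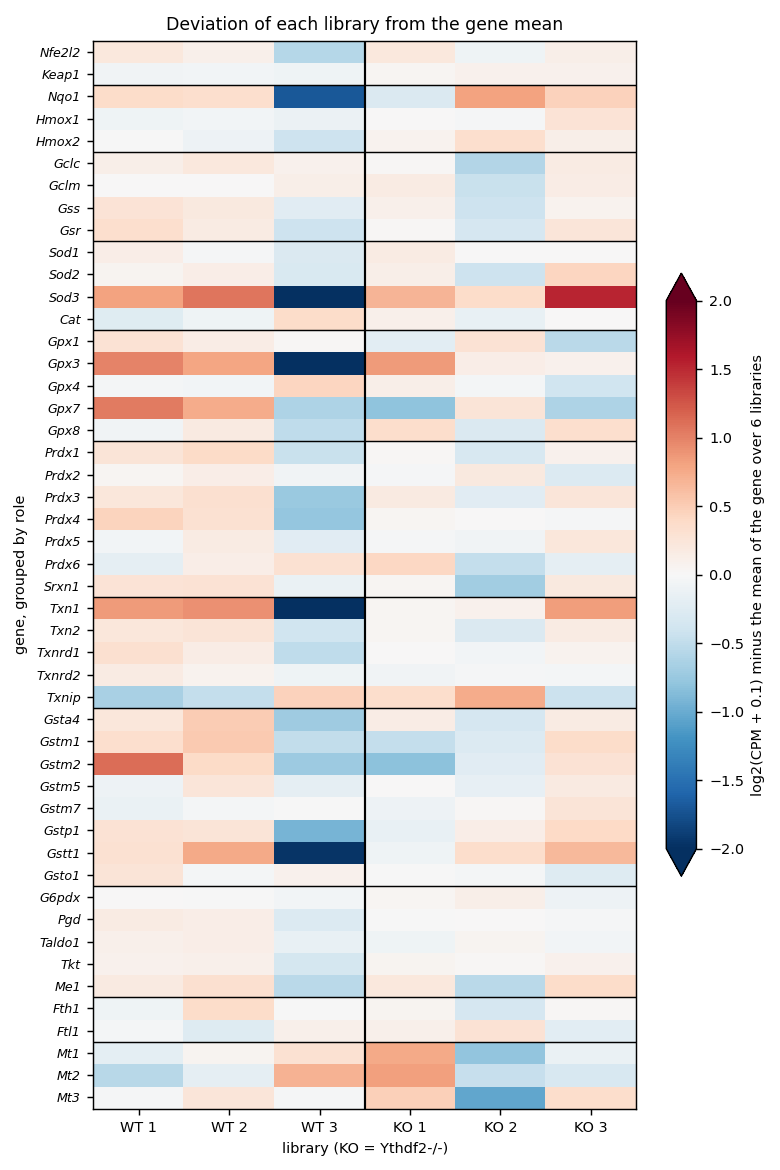
Each gene's log2(CPM + 0.1) in each library minus its mean over 6 libraries, by role, with colours limited to 2 above or below. Wild-type replicate 3 is mostly blue, below the gene mean, and the metallothioneins are red in Ythdf2-/- replicate 1 and blue in replicate 2.

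Leaving out wild-type replicate 3 changed the balance of the list, while 0 of 48 genes passed an adjusted p of 0.05 in edgeR (0.0151% of all genes passed). The median log2 fold change was -0.11 against 0.01 over all genes, with 13 genes above 0 and 35 below, where 51.7% of all genes were above. Of 14 genes that changed sign, 13 went from above to below 0, and *Cat* went the other way. An unadjusted p under 0.05 was found in 4 of 48 genes (16.6% of all genes), of which *Gpx7*, *Prdx1* and *Prdx4* were below 0 (8.58% of all genes) and *Txnip* above. The groups did not overlap for 4 genes that were higher and 14 that were lower, against 18.8% and 20.1% of all genes. This count with 2 wild-type libraries was added after seeing the data. When all 6 libraries were kept and weighted by their quality in limma-voom, 1 of 48 genes passed an adjusted p of 0.05 (5.28% of all genes), *Gpx7*, which fell by 1.53 on the log2 scale (adjusted p = 0.0418).

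A list of 44 further genes of these pathways was described in the same way. Of these, 42 were tested, 26 with a log2 fold change above 0 and 16 below, with a median of 0.05. None passed an adjusted p of 0.05, and 3 (7.14%) had an unadjusted p under 0.05, beside 3.63% of all genes.

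*Chac1*, which degrades glutathione, was at 2.65, 2.44 and 1.10 CPM in the wild type and at 5.54, 2.74 and 8.45 CPM in Ythdf2-/-, a log2 fold change of 1.42 (SE 0.531). *Ggct*, a γ-glutamylcyclotransferase, was at 5.65, 6.49 and 11.5 CPM and at 3.24, 3.55 and 3.62 CPM, a log2 fold change of -1.18 (SE 0.337). *Maff*, a small Maf protein that pairs with Nrf2 and its rivals, was at 10.3, 9.92 and 19.8 CPM and at 4.09, 8.44 and 4.02 CPM, a log2 fold change of -1.27 (SE 0.435).

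The groups did not overlap for these 3 genes. For each of them, wild-type replicate 3 was the library farthest from the Ythdf2-/- values, and without it the log2 fold changes were 1.13, -0.80 and -0.86. Their adjusted p was 0.999 with all libraries and 0.321, 0.208 and 0.304 without that one. Besides these, *Idh1*, an NADPH-producing isocitrate dehydrogenase, was higher without overlap (0.17, SE 0.133) and the glutathione conjugate exporter *Abcc1* lower (-0.47, SE 0.251; -0.16 without that library). The 5 of 42 genes without overlap compare with 10.2% of all genes, so they are no result about this list.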

How the data were processed

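Input RNA-seq libraries of E14.5 NSPCs, 3 wild-type and 3 Ythdf2-/-, were grouped by the genotype in the sample labels. The authors fragmented mRNA, made stranded libraries and used TopHat for alignment to mm10. The raw counts deposited by the authors are whole reads per gene and were not normalized. The submitters' processing notes also list Bowtie2 2.2.9, RSEM 1.2.15 and featureCounts, with no role or order. The strand setting is not given in the sources used here. The authors also deposited tables of expected counts, TPM and FPKM per library. The expected counts summed to 1.97% to 2.40% of the raw counts, so no test used these tables, and only their gene lengths entered the RPKM values.

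After the filterByExpr filter, 13112 genes remained. The main test was the robust quasi-likelihood test of edgeR 4.0.16 (R 4.3.3) after TMM scaling, fitted on genotype alone, with p adjusted by Benjamini-Hochberg over every gene tested. Alternatives included DESeq2 1.42.0 and the voom method of limma 3.58.1. Log2 CPM for library comparisons used a prior count of 2. In all, 15 alternatives were planned and 1, applied to a pair of counts, was added after seeing the data. Other steps used Python 3.11.15 with pandas 2.3.3, numpy 2.4.6, scipy 1.17.1 and matplotlib 3.10.9. Tested on counts simulated from these libraries, edgeR recovered 84.5% of 200 genes changed 4-fold among 12963 genes, with 3.43% false calls, and 0% of 200 changed 2-fold among 12969, of which DESeq2 recovered 9.5%. Changes of 2-fold were thus mostly missed in this simulation. It gave every gene the common biological coefficient of variation of 0.332 and set no library apart. The spread of single members differs from this, so these shares do not carry over to them.

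The members and the lists were chosen with earlier results of these data known. CPM in every library was given for genes with an unadjusted p under 0.05, groups without overlap, an absolute log2 fold change of at least 0.58, 1 library at least 2-fold from all others, or a place among the 5 highest per length, and of the further pathway genes those with an unadjusted p under 0.05 and the 3 with the largest absolute log2 fold change. *Gclc*, *Prdx1*, *Prdx4*, *Prdx6*, *Txnip*, *Cat*, *Mt2*, *Idh1* and *Abcc1* were singled out after their values were seen. Exons, overlaps and promoters came from RefSeq on GRCm38.p6, the assembly also called mm10.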

Additional observations from a re-analysis of the deposited data

How the results depend on the processing

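Limits include wild-type replicate 3, the 3 libraries a genotype and the low counts of *Sod3*, *Gstm2* and *Gpx7*. No member passed an adjusted p of 0.05 under any alternative except limma-voom with sample quality weights, which gave that library a weight of 0.0901 and called 1 member, *Gpx7* (-1.53, adjusted p = 0.0418), where 5.28% of all genes were called. With these weights the log2 fold changes of *Nqo1* (-0.33), *Sod3* (-0.081), *Gpx3* (-0.21), *Txn1* (-0.63) and *Gstt1* (-0.42) turned below 0. Leaving out each library in turn gave 13 to 32 members above 0 and a median of -0.11 to 0.10. Among the 14 members named by rule, the ranges of those that changed sign in this way were -0.0085 to 1.11 for *Sod3*, -0.49 to 0.50 for *Gpx3*, -0.51 to 0.40 for *Txn1*, -0.21 to 0.76 for *Gstt1*, -0.48 to 0.32 for *Mt1* and -0.24 to 0.36 for *Mt3*. Without wild-type replicate 3 the groups did not overlap for 18 members in place of 3, with fewer libraries to overlap, and 1 member had a library 2-fold apart in place of 6, since that library was itself the one apart in the other 5. Both counts were added after seeing the data. At 1.5-fold there were 11. *Mt3* also turned to -0.0015 with RLE size factors and -0.0015 with DESeq2, and with limma-voom *Mt1* and *Mt3* were at -0.10 and -0.12. The deviations of same-numbered libraries from their genotype means had correlations of -0.248, -0.244 and -0.394. Deviations of 3 libraries from their own mean depend on each other, and wild-type replicate 3 stood apart. These values thus cannot show whether the numbers pair the libraries. With the replicate number as a block, 0 members were called, 25 were above 0, and *Mt1* and *Mt3* were at -0.12 and -0.12. Apart from the weights, the cause of these turns was not tested. Of 194 alternative values of 14 single members, 170 kept their direction and their side of the threshold.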

Other observations

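YTHDF2 is known to bind m6A, which is placed in GGAC and similar sequences, so the density of GGACT was counted. The count used the longest protein-coding transcript of each gene, which need not be the one these cells express. The letters alone do not show that a site is methylated, and the antibody-bound libraries were not analysed here. The 48 genes have short transcripts, with a median of 1561 bases against 3331 bases over 12288 tested genes with a transcript sequence. GGACT stood at a median of 1.12 per kb in the 48 genes and 1.04 per kb in all, and was missing from 9 of the 48 transcripts (18.75%) and from 6.57% of all. The 9 without it were *Hmox1*, *Sod1*, *Gpx3*, *Gpx4*, *Gpx8*, *Gsto1*, *Taldo1*, *Fth1* and *Mt2*. *Mt3* had the highest density, 3.73 per kb, and *Prdx4* followed at 3.03 per kb.

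The deposited tables of expected counts hold few reads for these genes. The sum over 6 libraries was a median of 0.0954% of the raw counts of a member, against 0.196% over all genes tested, and 4 members (*Sod3*, *Gpx7*, *Gstm7* and *Gstt1*) were listed at 0. *Txn1* had 31 expected counts beside 63208 raw reads. In 3 members the share was 5% or more, as it was in 13.4% of all genes tested: *Gstm2* at 12.7%, *Hmox2* at 12.5% and *Gss* at 6.27%.

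Among the further pathway genes, *Glrx*, a glutaredoxin, and *Ephx1*, the microsomal epoxide hydrolase, were also low in wild-type replicate 3. *Glrx* was at 16.7 CPM there against 76.0 to 117 CPM in the other 5 libraries, and *Ephx1* at 45.8 against 273 to 450.0 CPM. These genes were chosen after their values were seen.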
